A study of Mus musculus with 32 samples.

Results

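The NrESC libraries of passages 12 and 14, called late here, were set against the NrESC libraries of passages 4 and 6, called early. NrESC are E14 cells, a wild-type mouse embryonic stem cell line, grown in medium with T0901317, a synthetic compound that activates the liver X receptors (LXR). The libraries were chosen by arm and passage number alone, which gave 4 late and 4 early libraries, 8 of the 32 in the series, with 2 libraries at each passage. All 8 came from cells on gelatin with 10 µM T0901317, 15% serum, 1000 U/mL LIF, 3 µM of the GSK3 inhibitor CHIR99021 and 1 µM of the MEK inhibitor PD0325901. The 4 late and 4 early ESC libraries of the same passages came from the same line and medium without T0901317, and are used as the passage-matched comparison. A single wild-type line was used in both arms, and the labels give no clone, batch or date. Nothing in the labels tells whether a passage was sampled from 1 or 2 cultures, so the p-values measure only the spread between these libraries, which may be technical.

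Embryonic stem cells in serum, LIF and inhibitors of GSK3 and MEK keep the naive pluripotent state, and their transcriptome can drift with continued passaging. LXR are nuclear receptors that bind oxysterols and switch on genes of cholesterol export and fatty acid synthesis. Glycolytic enzymes and targets of hypoxia-inducible factors are known to move with cell density, oxygen and metabolic state, while germline genes of the Xlr and Rhox families on the X chromosome are usually silenced by DNA methylation in somatic cells.

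The libraries held 37500062 to 50463489 counts in NrESC late cells and 25062540 to 39977651 in NrESC early cells. The embryonic stem cell label held: the summed level of Pou5f1, Sox2, Nanog, Esrrb and Zfp42 was 4450 to 4546 CPM (counts scaled to library size) in late and 4461 to 5053 CPM in early libraries. Sets of 4 to 6 defining markers of other cells had summed levels of 40.0 to 44.8 CPM late and 42.0 to 49.0 CPM early for trophectoderm, 10.5 to 11 and 8.69 to 12.4 CPM for primitive endoderm, 3.41 to 4.60 and 4.12 to 6.58 CPM for mesoderm, and 11.7 to 13.0 and 13.1 to 15.4 CPM for neuroectoderm. For fibroblasts the sums were 9.53 to 10.1 CPM late and 7.58 to 8.90 CPM early, with Postn and Lum at 0 counts in all 8 libraries. Genes for ribosomal proteins took 7.03% to 7.33% of the counts in late and 7.51% to 7.88% in early libraries, ranges that did not overlap. Their part in the results below was not tested.

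In late against early NrESC cells, 18 of 24 glycolysis and hypoxia genes and 8 of 20 extracellular matrix genes were higher, and 7 Xlr genes of the X chromosome, Aim2, Bhmt, Zfp951 and Tlx2 were lower. With the 2 libraries of each passage summed, 0 genes of the first list, 1 of the second (Loxl2) and 0 Xlr genes were called. Of 20 LXR target genes tested, 0 were called higher and 1 lower. Most changes were small. Of 14088 genes tested, 736 were higher (5.22%) and 692 lower (4.91%) in late cells at an adjusted p under 0.05 (edgeR's quasi-likelihood test, 4 libraries against 4, Benjamini-Hochberg adjustment over all genes tested), 10.1% in all. The median absolute log2 fold change of the called genes was 0.248, and 43 genes rose and 34 fell by at least 2-fold. The 2 libraries of a passage may share a culture, so the test was also run with the 2 libraries of each passage summed, 2 passages against 2. That test called 2 genes higher (0.0142%) and 7 lower (0.0497%), 0.0639% in all, with 1461 genes at an unadjusted p under 0.05. In limma on log2(TPM + 1) the calls were 1590 higher and 259 lower, so that 86% of the calls were higher against 51.5% in the edgeR test, and the median of all genes lay at 0.0583.

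The early passages differed from each other more than the late ones did. In the median gene, the means of passages 6 and 4 lay 0.132 apart on the log2 scale, those of passages 14 and 12 lay 0.0687 apart, and the late and early means lay 0.087 apart. The 2 libraries of a passage lay 0.0621 apart. For 8810 genes, 62.5% of those tested, passages 6 and 4 differed by more than the late and early means did. A direct test of passage 6 against passage 4 called 2580 genes higher (17.9%) and 2603 lower (18%), 35.9% of 14422, against 414 higher (2.87%) and 332 lower (2.3%) for passage 14 against passage 12, 5.17% in all. Of the 1428 genes called between late and early, 485 were also called between passages 6 and 4 and 98 between passages 14 and 12. The 4 late libraries all lay on 1 side of the 4 early ones in 1387 of the 1428, and in 19% of all genes tested. The calls were made on these same libraries, so such separation follows in large part from the call.

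**Figure D1:**
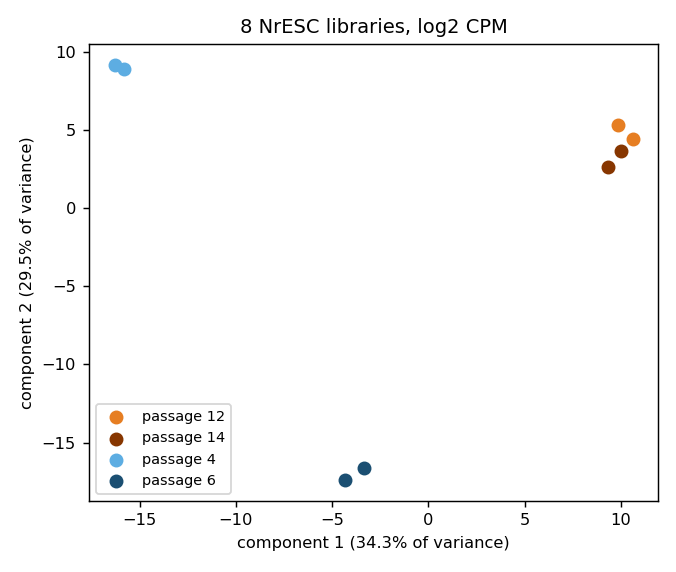
First 2 principal components of log2 CPM in the 8 NrESC libraries, 1 point per library, coloured by passage. The 4 late libraries lie together at about 10 on component 1 (34.3% of the variance), passage 6 lies near -4 and passage 4 near -16, and component 2 (29.5%) separates passage 6 from the rest.

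The passage 14 and 12 libraries lay together on the first component, at 9.32 to 10.6, and apart on the third (9.66% of the variance), at 9.15 and 7.45 for passage 14 and -7.90 and -7.76 for passage 12. On the first component the passage 6 libraries were at -3.37 and -4.31 and the passage 4 libraries at -16.3 and -15.8. The second component was 2.60 to 5.29 in the late libraries, -16.6 and -17.4 at passage 6, and 8.91 and 9.17 at passage 4.

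The 9 genes called in both tests were 2 that rose, Loxl2 and Pfkfb3, and 7 that fell, Zfp951, 1700013H16Rik, Aim2, Bhmt, Tlx2, Npr3 and Rn45s. All but 1700013H16Rik were named by a rule on fold and level that also required no overlap between the late and early libraries. The separation of the periods in the genes so named therefore follows from the selection. That rule passed over 1700013H16Rik as a placeholder symbol, and it was added after its values were seen. The adjusted p from the passage sums ran from 0.0214 to 0.0405 over these 9 genes, with 2 residual degrees of freedom. In the values below, the first 2 late libraries are passage 12 and the last 2 passage 14, and the first 2 early libraries are passage 4 and the last 2 passage 6. All levels are CPM.

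Loxl2 encodes a lysyl oxidase that crosslinks collagen and is a known target of hypoxia-inducible factor. It was at 15.5, 17.0, 13.6 and 14.7 CPM in late libraries, against 6.75, 7.16, 5.21 and 4.98 CPM in early ones. The log2 fold change was 1.34 ± 0.118 (SE, edgeR adjusted p = 0.000118). Pfkfb3 makes fructose 2,6-bisphosphate, the main activator of glycolytic phosphofructokinase. Its level was 18.7, 18.9, 22.7 and 19.8 CPM in late libraries and 11.2, 10.0, 9.47 and 9.16 CPM in early libraries. Its log2 fold change was 1.01 ± 0.084 (edgeR adjusted p = 7.7e-05).

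Zfp951, a zinc finger gene on chromosome 5, was at 1.37, 1.53, 1.24 and 1.27 CPM in late libraries, against 5.48, 4.93, 4.28 and 3.76 CPM in early libraries. These levels rested on 232 late and 599 early counts over the 4 libraries of each period. The log2 fold change was -1.76 ± 0.144 (edgeR adjusted p = 7.67e-05). The X-linked gene 1700013H16Rik had the lowest fold of the 9 genes, at 12.7, 11.3, 8.37 and 8.50 CPM late and 51.7, 52.0, 37.8 and 35.5 CPM early, a log2 fold change of -2.11 ± 0.156 (edgeR adjusted p = 7.67e-05). Passage 14 lay below passage 12, and passage 6 below passage 4, so this gene fell in order along all 4 passages.

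Aim2 encodes a sensor of cytosolic DNA that assembles an inflammasome. It was at 20.3, 20.6, 17.6 and 16.2 CPM in late libraries and 50.0, 51.0, 40.3 and 38.9 CPM in early libraries (log2 fold change -1.26 ± 0.102, edgeR adjusted p = 7.67e-05). As with 1700013H16Rik, each later passage was lower than the one before it. Bhmt encodes betaine-homocysteine methyltransferase, which makes methionine from homocysteine. Its level was 17.1, 17.5, 15.4 and 14.8 CPM late, against 40.3, 42.5, 31.8 and 30.9 CPM early, with a log2 fold change of -1.16 ± 0.103 (edgeR adjusted p = 0.000118).

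Tlx2 encodes a homeobox factor and Npr3 the natriuretic peptide clearance receptor. Tlx2 was at 21.2, 18.3, 20.4 and 21.0 CPM late and 37.6, 40.5, 32.6 and 39.3 CPM early (log2 fold change -0.89 ± 0.072). Npr3 was at 19.4, 19.6, 18.2 and 17.2 CPM late and 34.3, 34.5, 30.3 and 30.6 CPM early (log2 fold change -0.80 ± 0.063), with adjusted p = 7.67e-05 for both in edgeR's test. The 4 late libraries of each gene lay within a narrow range. Rn45s is the 45S precursor of ribosomal RNA, which a poly(A) library carries as a residue, so that its level also depends on the RNA selection. It was at 1638, 1566, 1508 and 1454 CPM late and 2264, 2479, 2471 and 2199 CPM early (log2 fold change -0.61 ± 0.047, edgeR adjusted p = 7.67e-05).

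**Figure D2:**
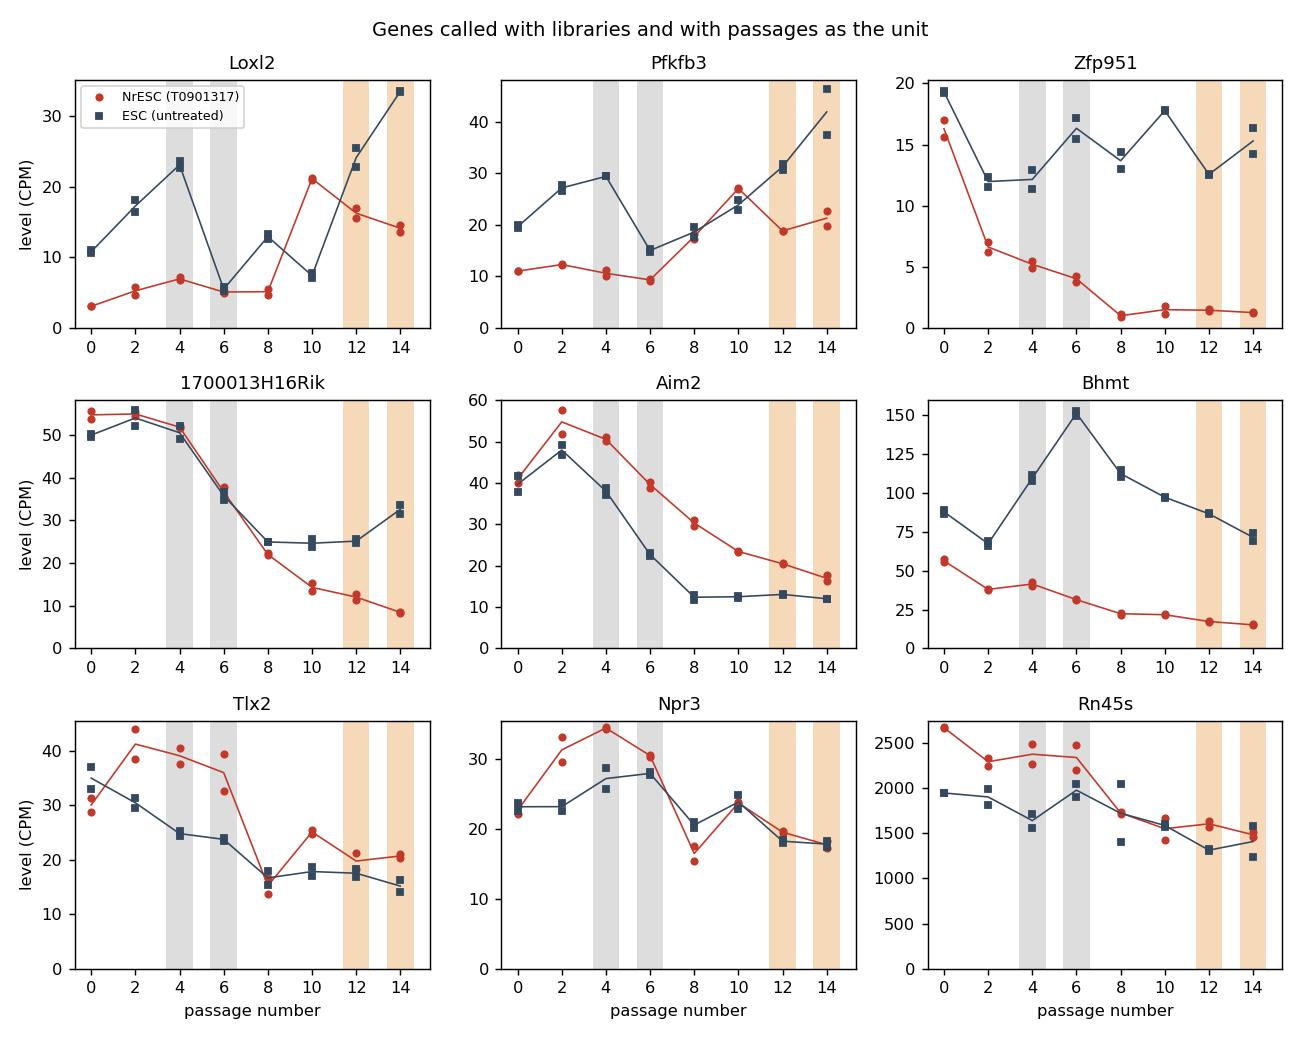
Level in CPM against passage number for the 9 genes called with libraries and with summed passages as the unit, 1 point per library, with lines through the mean of 2 libraries (red circles NrESC, dark squares ESC untreated, orange bands late passages, grey bands early passages). In NrESC cells Loxl2 averages 3.07 to 6.96 CPM up to passage 8 and 21.2 CPM at passage 10, while Aim2 is lower at each passage after passage 2.

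The NrESC passages that the comparison left out show when these genes moved. Zfp951 averaged 16.3, 6.62, 5.21, 4.02, 0.998, 1.49, 1.45 and 1.26 CPM at passages 0, 2, 4, 6, 8, 10, 12 and 14, and was lower at each next passage up to passage 8. Aim2 averaged 41.0, 54.8, 50.5, 39.6, 30.3, 23.4, 20.5 and 16.9 CPM over the same passages. Loxl2 averaged 3.07, 5.27, 6.96, 5.10, 5.14, 21.2, 16.3 and 14.1 CPM, with its step between passages 8 and 10. Pfkfb3 averaged 11, 12.3, 10.6, 9.32, 17.7, 27.0, 18.8 and 21.3 CPM and was above its early level from passage 8 on. Over all 1428 called genes, 66.9% at passage 8 and 76.1% at passage 10 were nearer the late than the early mean, against 57.8% and 59.1% of all genes tested. At passages 0 and 2 the shares were 19% and 15.8%, against 35.8% and 34.6% of all genes.

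Glycolysis and hypoxia genes were the list with the most calls. Of 24 tested, 18 were higher and 0 lower in late NrESC cells, with a median log2 fold change of 0.26, against 10.1% called and a median of -0.00077 over all genes tested. The calls ran along the pathway, from the glucose carriers Slc2a1 and Slc2a3 through hexokinase (Hk2), glucose phosphate isomerase (Gpi1), phosphofructokinase (Pfkl, Pfkp), aldolase (Aldoa), triose phosphate isomerase (Tpi1), phosphoglycerate kinase (Pgk1), phosphoglycerate mutase (Pgam1) and enolase (Eno1) to lactate dehydrogenase (Ldha). Hk1, Gapdh and Pkm did not pass the test, with log2 fold changes of 0.03, 0.05 and 0.06. Calls outside the enzymes were Pdk1, which holds pyruvate back from the mitochondria, P4ha1, a collagen prolyl hydroxylase, and the hypoxia-inducible genes Bnip3, Ndrg1, Egln3 and Adm. Vegfa, Ankrd37 and Car9, known targets of hypoxia-inducible factors, were not called, with log2 fold changes of 0.33, 0.43 and -0.0049.

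Pgk1, on the X chromosome, was at 844, 856, 817 and 806 CPM in late libraries and 622, 623, 567 and 587 CPM in early libraries. Its change was small and even, with a log2 fold change of 0.47 ± 0.036 (edgeR adjusted p = 7.67e-05). Slc2a1, the GLUT1 glucose carrier, was at 469, 476, 481 and 465 CPM late and 367, 369, 320 and 327 CPM early (log2 fold change 0.45 ± 0.047, edgeR adjusted p = 0.000298). Pfkp, the platelet-type phosphofructokinase, was at 468, 472, 469 and 455 CPM late and 380, 385, 351 and 354 CPM early (log2 fold change 0.34 ± 0.036, edgeR adjusted p = 0.000298). In these 3 genes the early passages lay close together and the late ones above them.

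The hypoxia-inducible members changed by more and were less even. Bnip3, a mitophagy receptor, was at 62.8, 63.6, 59.7 and 59.5 CPM late and 31.4, 34.6, 22.2 and 20.9 CPM early (log2 fold change 1.18 ± 0.129, edgeR adjusted p = 0.000413). Ndrg1, a stress-responsive gene, was at 36.7, 37.1, 37.5 and 35.7 CPM late and 20.4, 21.8, 11.4 and 9.49 CPM early (log2 fold change 1.23 ± 0.200, edgeR adjusted p = 0.00428). Passage 6 held the lowest values of both genes, and passage 4 lay between passage 6 and the late level. Egln3, the prolyl hydroxylase that marks hypoxia-inducible factor for breakdown, was at 20.4 to 22.6 CPM late and 7.25 to 13.5 CPM early (log2 fold change 1.06 ± 0.162, edgeR adjusted p = 0.00312). Adm, which encodes the peptide adrenomedullin, had the highest fold of the list, 2.06 ± 0.366 on the log2 scale (edgeR adjusted p = 0.00627), from 133 late and 24 early counts over 4 libraries each.

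The calls of this list depend on which passages enter. Without passage 4 there were 21 higher and 0 lower, and without passage 6 there were 20 higher and 1 lower. Without passage 12 or without passage 14 there were 5 higher and 0 lower each time, and with passages summed there were 0 calls, while the median stayed between 0.20 and 0.35 in these 5 fits. Over all genes the calls were 2014 higher and 2160 lower of 14390 without passage 4, 1789 and 1938 of 14339 without passage 6, 76 and 60 of 14277 without passage 12, and 110 and 100 of 14310 without passage 14. Between passages 6 and 4 alone, 17 of the 24 genes were lower and 5 higher at passage 6, with a median of -0.16. Of all genes, 18% were lower and 17.9% higher at passage 6. In ESC cells the median late minus early change of the list was 0.34 with 1 gene called, Ankrd37, where 6.96% of all genes were called. The test of the difference between arms called 0 of these 24 genes, and 0.542% of all genes, so a count of 0 is near the share over all genes.

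Promoter sequence is shown for Bnip3 and Adm, hypoxia-inducible members of this list with large folds. It is also shown for Pfkfb3, the glycolytic gene called in both tests, which is not in the list. The core of the hypoxia response element, ACGTG or GCGTG, is in capitals, on either strand. Each run holds the 150 bases before the annotated start (RefSeq, GRCm38.p6), 5′ to 3′ along the gene's strand. Bnip3 is at chr7:138909507-138909656, minus strand, Pfkfb3 at chr2:11553930-11554079, minus strand, and Adm at chr7:110627507-110627656, plus strand.
Bnip3: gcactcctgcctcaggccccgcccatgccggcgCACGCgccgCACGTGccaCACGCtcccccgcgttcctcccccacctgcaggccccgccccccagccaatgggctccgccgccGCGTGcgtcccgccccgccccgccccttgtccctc
Pfkfb3: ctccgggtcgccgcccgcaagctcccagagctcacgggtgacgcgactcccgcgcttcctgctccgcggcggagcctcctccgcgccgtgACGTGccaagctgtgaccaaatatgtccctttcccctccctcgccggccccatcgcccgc
Adm: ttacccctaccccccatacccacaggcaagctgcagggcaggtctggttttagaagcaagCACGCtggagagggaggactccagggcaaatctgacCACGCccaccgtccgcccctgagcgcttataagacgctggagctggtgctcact
Both strands and overlapping matches were counted, so that a CACGTG holds 2 matches. Bnip3 held 5 matches in this window, Adm 2 and Pfkfb3 1. In 250 bases before the start, 16 of the 22 list members with a promoter entry held the core (72.7%), against 63.8% of 555 called-higher genes, 56.3% of 533 called-lower genes and 56.5% of the 11018 tested genes with an entry, and 38.6% of all 27025 promoters. A match is a run of letters and says nothing of binding.

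Extracellular matrix genes, with a median log2 fold change of 0.15, gave 8 of 20 higher and 0 lower. Among all genes tested 5.22% were higher and 4.91% lower. The matrix genes called were Loxl2 and 7 more. These were the basement membrane collagens Col4a1, Col4a2 and Col18a1, the laminin chains Lama1, Lamb1 and Lamc1, and Plod2, which hydroxylates collagen lysines. Col4a1 was at 53, 46, 45.4 and 45.6 CPM late and 29.3, 30.9, 35.1 and 38.4 CPM early (log2 fold change 0.51 ± 0.081, edgeR adjusted p = 0.00402). Col4a2 was at 24.8, 24.1, 19.5 and 18.7 CPM late and 15.3, 15.4, 15.1 and 15.2 CPM early (log2 fold change 0.52 ± 0.091, edgeR adjusted p = 0.00593). These neighbouring genes encode chains of 1 collagen trimer, and in Col4a2 passage 12 lay above passage 14. Col1a2 had the lowest log2 fold change of the list, at -1.08, and was not called. Without passage 6 the list had 8 higher and 3 lower, and without passage 4 it had 14 higher and 0 lower. Without passage 12 it had 1 higher, without passage 14 it had 5 higher, and with passages summed it had 1, Loxl2. Over all genes, 2014 were higher and 2160 lower of 14390 without passage 4, and 1789 and 1938 of 14339 without passage 6. The all-gene counts were 76 and 60 of 14277 without passage 12, and 110 and 100 of 14310 without passage 14.

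Primitive endoderm genes had 6 of 17 higher and 2 lower (median 0.08), against 5.22% higher and 4.91% lower over all genes tested. The higher ones were Col4a1, Col4a2, Lama1, Lamb1, Lamc1 and Hnf4a, so 5 of them are also in the matrix list, and the lower ones were Dab2 and Fst. The lineage's defining genes Gata4, Gata6, Sox17 and Pdgfra were not called, with log2 fold changes of -0.02, -0.02, -0.18 and 0.39, and Sox7 was too low to be tested. Fibroblast markers had 2 of 7 higher, Thy1 (log2 fold change 0.44) and Fbn1 (0.47), and 0 lower, against the same shares over all genes. Col1a1, at 0.25, was not called. Col1a2 had the largest change of the list, a fall of -1.08 from 45 late and 72 early counts, and was not called either.

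**Figure D3:**
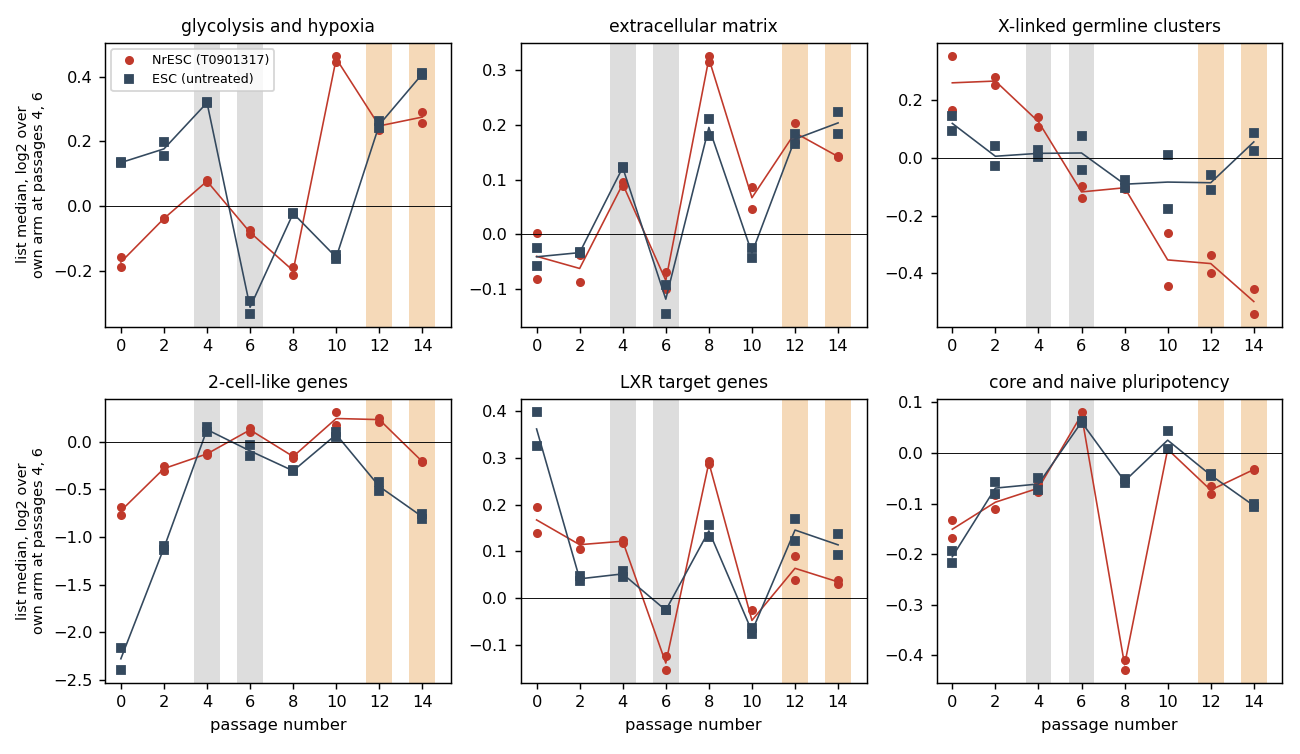
Median over the members of 6 gene lists of the log2 level in each library relative to the mean of passages 4 and 6 of its own arm, against passage number, with 1 point per library (red circles NrESC, dark squares ESC untreated, orange bands late, grey bands early). The glycolysis and hypoxia median is 0.23 to 0.29 in late NrESC libraries and -0.09 to 0.08 in early ones, and the X-linked germline median is -0.54 to -0.33 late and -0.14 to 0.14 early.

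Xlr genes fell, and the other genes of the X-linked germline clusters were not called. The median log2 fold change of this list was -0.53. Of its 16 genes tested, 0 were higher and 7 lower in late NrESC cells, against 5.22% and 4.91% of all genes tested. All 7 were members of the Xlr family, which encode chromatin-associated proteins related to meiotic synaptonemal complex protein 3: Xlr3a, Xlr3b, Xlr3c, Xlr4a, Xlr4b, Xlr5a and Xlr5b. Xlr4c had a log2 fold change of -0.91 (edgeR adjusted p = 0.151). The 4 Rhox homeobox genes tested were not called, with log2 fold changes of 0.39 for Rhox1, -0.36 for Rhox6, 0.04 for Rhox9 and -0.53 for Rhox13. The Mage genes Mageb16, Mageb4, Magee1 and Mageh1 were not called either, at -0.15, -0.18, 0.25 and 0.16.

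Xlr3c was at 2.98, 4.09, 3.21 and 2.42 CPM late and 8.18, 7.97, 5.79 and 5.31 CPM early (log2 fold change -1.09 ± 0.178, edgeR adjusted p = 0.00443). Xlr3b was at 7.41, 8.83, 6.92 and 7.28 CPM late and 17.2, 17.0, 13.3 and 10.6 CPM early (-0.92 ± 0.141, edgeR adjusted p = 0.00313). Xlr3a was at 12.2, 11.9, 9.92 and 10.6 CPM late and 18.3, 17.9, 14.3 and 14.0 CPM early (-0.53 ± 0.104, edgeR adjusted p = 0.00977). In all 3 genes passage 4 was highest, passage 6 lay below it and the late libraries lay below both. Xlr4a, Xlr4b, Xlr5a and Xlr5b were at 1.09 to 3.64 CPM late and 2.12 to 6.55 CPM early, with log2 fold changes of -0.88, -0.96, -0.64 and -0.75. The Xlr genes are near-identical copies, and RSEM divides reads that match several of them, so the values of single copies are uncertain.

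The likeness of the Xlr3 copies is shown by the 100 bases before their annotated starts (RefSeq, GRCm38.p6), with the longest run that all 3 share within this window in capitals. Xlr3a is at chrX:73097096-73097195, minus strand, Xlr3b at chrX:73192079-73192178, plus strand, and Xlr3c at chrX:73265391-73265490, minus strand.
Xlr3a: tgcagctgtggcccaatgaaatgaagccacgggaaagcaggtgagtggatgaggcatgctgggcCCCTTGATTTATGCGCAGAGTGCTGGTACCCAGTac
Xlr3b: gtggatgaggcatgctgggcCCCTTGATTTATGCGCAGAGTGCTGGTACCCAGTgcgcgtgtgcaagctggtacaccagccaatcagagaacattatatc
Xlr3c: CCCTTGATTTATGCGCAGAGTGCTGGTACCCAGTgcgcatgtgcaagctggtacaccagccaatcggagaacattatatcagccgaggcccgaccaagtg
Within the window the shared run is 34 bases long, and in Xlr3c it starts at the edge of the window, so its full length was not measured. It ends 3 bases before the annotated start of Xlr3a, 47 before that of Xlr3b and 67 before that of Xlr3c.

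In the same list, the count without passage 4 was 1 higher and 7 lower and without passage 6 it was 0 higher and 9 lower. Without passage 12 or passage 14 it was 1 lower, and with passages summed it was 0, with medians of -0.35 to -0.68 in these 5 fits. Over all genes, 2014 were higher and 2160 lower of 14390 without passage 4, and 1789 and 1938 of 14339 without passage 6. The all-gene counts were 76 and 60 of 14277 without passage 12, and 110 and 100 of 14310 without passage 14. The median over the 497 tested genes of the X chromosome was -0.0048, and the medians of the 19 autosomes lay between -0.02 and 0.03.

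Of the Y-linked list 4 genes were tested, and 3 fell. Over all genes tested, 4.91% were lower and 10.1% were called in either direction. Uba1y, a ubiquitin-activating enzyme gene with a known role in male germ cells, was at 2.56, 3.23, 3.16 and 3.08 CPM late and 10.2, 10.2, 5.72 and 5.01 CPM early (log2 fold change -1.36 ± 0.221, edgeR adjusted p = 0.00428). Ddx3y, an RNA helicase gene, was at 73.1, 75.2, 68.1 and 67.7 CPM late and 84.1, 84.9, 83.9 and 82.5 CPM early (-0.24 ± 0.041, edgeR adjusted p = 0.00566). Uba1y thus changed by far more than its neighbours on the chromosome and already differed between passages 4 and 6, while Ddx3y was level within the early period. Eif2s3y, a translation initiation factor gene, fell by 0.14 on the log2 scale (edgeR adjusted p = 0.0456), and Uty had a log2 fold change of -0.18 (edgeR adjusted p = 0.0835). None of the 9 X-linked partner genes tested was called, with log2 fold changes of -0.26 for Sox3 to 0.13 for Zfx, and Uba1, the partner of Uba1y, was at 0.01. Uba1y and Uba1 are similar in sequence, so that reads may have been divided between them.

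The LXR target list, the direct readout of the agonist, had 0 of 20 higher and 1 lower. Its median log2 fold change was 0.03. Of all genes tested 5.22% were higher and 4.91% lower, so these counts are near the share over all genes. Abca1, the cholesterol exporter, was at 441, 460, 440 and 439 CPM in late libraries and 421, 415, 425 and 421 CPM in early libraries (log2 fold change 0.08 ± 0.028, edgeR adjusted p = 0.0819). Abcg1, a further sterol exporter, was at 117 to 124 CPM late and 99.4 to 127 CPM early (0.10 ± 0.071, edgeR adjusted p = 0.412). For reference, Abca1 was at 41.5 to 53.4 CPM in the late and 48.9 to 61.7 CPM in the early ESC libraries. The call was Apoc1, an apolipoprotein gene, at 29.4 to 34.4 CPM late and 36.2 to 40.0 CPM early (-0.26 ± 0.056, edgeR adjusted p = 0.015).

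The direction of this list turned with the early passage used. Without passage 4 it had 9 higher and 1 lower (median 0.17), and without passage 6 it had 1 higher and 7 lower (median -0.07), in fits that called 2014 higher and 2160 lower of 14390 genes without passage 4, and 1789 and 1938 of 14339 without passage 6. Between passages 6 and 4, 12 of 20 members were lower at passage 6 and 0 higher, with a median of -0.28. Of all genes, 18% were lower and 17.9% higher at passage 6. Srebf1, the transcription factor of fatty acid synthesis, was at 273 to 280 CPM late, 307 and 322 CPM at passage 4 and 238 and 254 CPM at passage 6, so that the late level lay between the early passages.

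Cholesterol synthesis genes had 3 of 24 higher, Acat2 among them, and 0 lower. Fatty acid synthesis genes had 3 of 20 higher (Acss2, Acaca and Acacb) and 1 lower (Agpat2). Over all genes tested the shares were 5.22% higher and 4.91% lower. Acat2, an acetyl-CoA acetyltransferase at the start of the pathway, was at 148, 149, 156 and 152 CPM late and 140, 137, 140 and 140 CPM early (log2 fold change 0.12 ± 0.031, edgeR adjusted p = 0.0317). Acaca, the acetyl-CoA carboxylase of lipid synthesis, was at 271, 282, 293 and 291 CPM late and 245, 244, 253 and 256 CPM early (0.19 ± 0.034, edgeR adjusted p = 0.00675). Both genes were higher in each late library than in any early one, by a small amount. Without passage 6 the cholesterol list had 5 higher and 7 lower, and without passage 4 it had 10 higher and 0 lower. The fatty acid list had 3 higher and 6 lower without passage 6 and 10 higher and 2 lower without passage 4. Over all genes the same fits called 1789 and 1938 of 14339 without passage 6, and 2014 and 2160 of 14390 without passage 4.

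Core and naive pluripotency genes had 1 of 29 higher and 4 lower, with a median log2 fold change of -0.05. Among all genes tested 5.22% were higher and 4.91% lower. Klf4, a factor of the naive network downstream of LIF, was at 275, 272, 272 and 277 CPM late and 331, 335, 346 and 360 CPM early (-0.32 ± 0.033, edgeR adjusted p = 0.000298). Zfp57, which guards imprinted methylation, fell by 0.21, Dppa5a by 0.19 and Pou5f1, the gene of Oct4, by 0.12 on the log2 scale, and Tcl1, a cofactor of AKT signalling, rose by 0.29 (edgeR adjusted p = 0.00869, 0.03, 0.0302 and 0.041 in that order). Nanog, Sox2 and Esrrb were not called, with log2 fold changes of -0.08, 0.01 and -0.06. Klf4 had the largest change among the 5 genes called. Without passage 4 the list had 3 higher and 15 lower, and without passage 6 it had 8 higher and 7 lower, against 2014 and 2160, and 1789 and 1938, over all genes in the same fits. None of the 14 formative and primed genes tested was called, against 10.1% of all genes tested.

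The 2-cell-like program is seen in few cells at a time and named after the cleavage embryo. Its genes had 0 of 22 calls, against 10.1% of all genes tested, and a median of 0.0068. Zscan4c, the program's best known marker, was at 9.07, 9.13, 5.44 and 5.52 CPM late and 5.88, 5.29, 7.08 and 7.55 CPM early. Passage 12 was thus above and passage 14 within the early range. Passage 14 was lower than passage 12 in 10 of 23 members and higher in 0 (median -0.51), where 2.3% of all genes were lower. Passage 6 was higher than passage 4 in 8 of 23 and lower in 0 (median 0.29), where 17.9% of all genes were higher. In bulk RNA, fewer cells of a state and less RNA per cell cannot be told apart.

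Imprinted genes had 3 of 36 higher and 5 lower, against 5.22% and 4.91% of all genes tested. The lower ones included Meg3, Rian and Mirg, long RNAs of the maternal Dlk1-Dio3 cluster on chromosome 12. Meg3 was at 46.7, 47.2, 49.6 and 50.0 CPM late and 97.5, 102, 65.8 and 61.6 CPM early (log2 fold change -0.75 ± 0.139, edgeR adjusted p = 0.0071). Rian was at 71.8, 75.4, 70.5 and 72.9 CPM late and 127, 120, 96.5 and 88.8 CPM early (-0.57 ± 0.094, edgeR adjusted p = 0.00445). Both were highest at passage 4 and lower at passage 6. Mirg, at 3.37 to 4.07 CPM late and 5.85 to 6.59 CPM early, was level within the early period (-0.71 ± 0.097, edgeR adjusted p = 0.00166). The other lower genes were Peg10, a retrotransposon-derived gene (log2 fold change -0.64), and Nnat (-0.39), and the higher ones were Grb10, an adaptor that restrains growth (0.41), Igf2r (0.28) and Peg3 (0.27).

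Targets of beta-catenin, which CHIR99021 stabilizes, had 0 of 15 higher and 5 lower, with a median of -0.14. Over all genes tested, 5.22% were higher and 4.91% lower. Sp5, a direct target, was at 2.06, 2.33, 3.42 and 3.24 CPM late and 5.32, 5.69, 4.61 and 4.78 CPM early (log2 fold change -0.88 ± 0.158, edgeR adjusted p = 0.0064). Cdx1, a homeobox gene, was at 67.8, 62.5, 62.3 and 64.6 CPM late and 96.2, 92.4, 83.0 and 92.7 CPM early (-0.50 ± 0.049, edgeR adjusted p = 0.00028). The 2 periods were apart in both genes. Apcdd1, a Wnt antagonist, fell by 0.44, Axin2, a feedback inhibitor, by 0.19 and Ccnd1, the gene of cyclin D1, by 0.14 on the log2 scale. Without passage 4 the count was 1 higher and 8 lower and without passage 6 it was 0 higher and 6 lower. Without passage 12 it was 1 lower and without passage 14 it was 2 lower. Over all genes, 2014 were higher and 2160 lower of 14390 without passage 4, and 1789 and 1938 of 14339 without passage 6. The all-gene counts were 76 and 60 of 14277 without passage 12, and 110 and 100 of 14310 without passage 14.

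The counts of the remaining lists stand against 10.1% called over all genes. Methylation-sensitive germline genes had 3 of 26 higher and 4 lower, the DNA methylation machinery 1 of 19 higher (Dnmt3l, log2 fold change 0.28) and 1 lower (Zfp57), and the 7 PRAME family genes 0. Trophectoderm genes had 4 of 21 higher and 2 lower, among them Dlx3 at 2.74 to 3.85 CPM late and 1.19 to 2.31 CPM early, and Krt8 at 52.7 to 58.2 CPM late and 63.3 to 103 CPM early. Mesoderm and definitive endoderm genes had 0 of 14 higher and 1 lower (Cdx1), and neuroectoderm genes 3 of 7 higher (Ncam1, Zic1 and Nes) and 0 lower. Zic1 rested on 68 late and 20 early counts. By sign alone, 5 of the 7 neuroectoderm genes were higher and 2 lower. Sox1, a defining marker of neuroectoderm, was not called, at a mean of 12.2 CPM late and 14.2 CPM early. Genes of the ERK feedback and immediate early list, which the MEK inhibitor holds down, had 3 of 20 higher (Ier3, Fos and Dusp4) and 1 lower (Phlda1). MHC and antigen presentation genes had 2 of 19 higher, H2-Ab1 at 1.43 to 1.86 CPM late and 0.596 to 0.856 CPM early, and Tap1. ATF4 and unfolded protein response genes had 3 of 28 higher, the endoplasmic reticulum chaperones Hspa5, Hsp90b1 and Pdia4 at log2 fold changes of 0.11, 0.10 and 0.15, and p53 targets had 3 of 23 higher (Pmaip1, Zmat3 and Tnfrsf10b).

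Without the need to pass with passages summed, the same rule named further genes, chosen after their values were seen. The highest were Ndufa4l2 (log2 fold change 1.56), a mitochondrial gene induced by hypoxia, Cacna1h (1.40), a T-type calcium channel, Col5a3 (1.27), a fibrillar collagen, Ccnd2 (1.15), the gene of cyclin D2, Dnah6 (1.12), an axonemal dynein, and Nxph4 (1.11), a neurexophilin. Ndufa4l2 was at 21.5, 20.4, 18.7 and 20.8 CPM late and 9.05, 9.53, 4.43 and 4.78 CPM early, a pattern like that of Bnip3 and Ndrg1. Lower genes named were Htr5a (-1.53), a serotonin receptor, Anxa3 (-1.44) and Anxa1 (-1.07), both annexins, Cited4 (-1.33), a transcription cofactor, St8sia5 (-1.18), a sialyltransferase, and Msc (-1.13), a bHLH repressor. Htr5a was at 2.72, 3.53, 2.41 and 2.54 CPM late and 12.5, 11.8, 4.31 and 4.32 CPM early, so that most of its fall lay between passages 4 and 6.

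Within the early period, passage 6 against passage 4, the rule named Id3, an inhibitor of bHLH factors (log2 fold change 1.90), Lefty1, a Nodal antagonist (1.55), and Nrcam, a cell adhesion gene (1.35), as highest, and Cacna1h (-1.66) and the linker histone gene Hist1h1a (-1.59) among the lowest. Id3 was at 19 and 19.5 CPM at passage 6, against 4.96 and 5.32 CPM at passage 4, and 7.46 to 9.09 CPM in the late libraries. For passage 14 against passage 12 the rule named Rps27 (1.35), D7Ertd143e (0.78) and B3galt4 (0.61) as highest and Hist1h1a (-1.27), Btg3 (-0.80) and Dsc2 (-0.74) as lowest. Hist1h1a fell within both periods, at 1.61 and 1.71 CPM at passage 6 against 4.45 and 5.46 CPM at passage 4, and at 0.751 and 0.845 CPM at passage 14 against 2.00 and 1.88 CPM at passage 12. Histone messages mostly lack poly(A) tails, and histone genes took 0.0025% to 0.00381% of the counts in late and 0.00404% to 0.00718% in early NrESC libraries.

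The untreated arm was used to ask which of these changes came with passaging in either arm. The same test on the 8 ESC libraries called 473 genes higher (3.38%) and 500 lower (3.58%) in late cells, 6.96% of 13986, and 0 with passages summed, with no library shared between the arms. Of the 1423 NrESC calls tested in both arms, 277 were called in ESC cells (19.5% of the NrESC and 28.7% of the ESC calls), 269 of them in the same direction. Of the same 1423 genes, 1230 (86.4%) had the same sign in ESC cells, against 64.7% of all 13766 genes tested in both. Across those genes the log2 fold changes of the arms had a Pearson r of 0.479 and a Spearman rho of 0.414. Genes are not independent replicates, and passage number is shared between the arms, so these are descriptions.

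**Figure D4:**
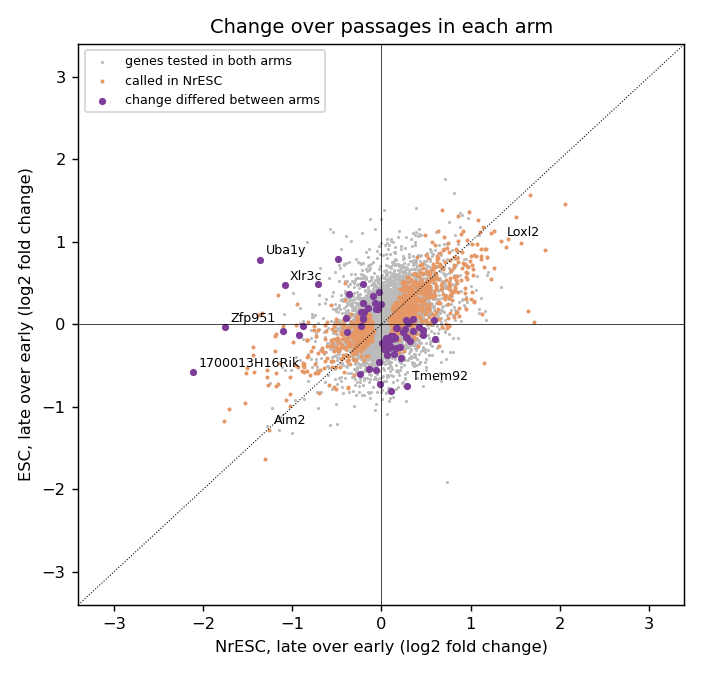
Late over early log2 fold change of each gene in NrESC (x axis) and ESC (y axis), with genes called in NrESC in orange and genes whose change differed between arms in purple, and a dotted line of equal change. Most orange points lie at the lower left and upper right, Aim2 and Loxl2 among them, while Uba1y, Xlr3c and Zfp951 lie away from the line. 1 gene lies outside the axes.

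Aim2 fell in both arms, with a log2 fold change of -1.26 in NrESC and -1.28 in ESC cells (edgeR adjusted p = 0.00363 in ESC), and a difference of 0.01 ± 0.219 (SE, edgeR adjusted p = 0.99). Bhmt, Tlx2, Npr3 and Rn45s fell in ESC cells too, by 0.72, 0.57, 0.61 and 0.41 on the log2 scale. Loxl2 and Pfkfb3 had ESC log2 fold changes of 1.01 and 0.72 without passing the test (edgeR adjusted p = 0.154 and 0.0764). In ESC cells Loxl2 was at 22.8, 25.5, 33.4 and 33.7 CPM late, but at 22.6 and 23.6 CPM at passage 4 and 5.19 and 5.83 CPM at passage 6, so only passage 6 lay apart from the late level there. For 7 of the 9 genes called in both NrESC tests the difference between arms was not called, and the exceptions were Zfp951 and 1700013H16Rik.

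The test of the difference itself, NrESC change minus ESC change over 16 libraries, called 50 genes higher (0.347%) and 28 lower (0.194%), 0.542% of 14398. At an unadjusted p under 0.05 there were 1981 genes, and with the libraries of each passage summed the test called 0.

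Zfp951 had a difference of -1.72 ± 0.207 (edgeR adjusted p = 0.000888). In ESC cells it stayed at 12.5, 12.6, 16.4 and 14.2 CPM late and 11.3, 13.0, 15.5 and 17.2 CPM early, while NrESC cells were at the 1.24 to 1.53 CPM late and 3.76 to 5.48 CPM early given above. The fall with passage passed the test in the treated arm, and the treated arm lay under the untreated one in both periods. 1700013H16Rik had a difference of -1.53 ± 0.232 (edgeR adjusted p = 0.00572), with ESC levels of 25.5, 24.7, 33.6 and 31.5 CPM late and 48.9, 52.0, 34.9 and 36.6 CPM early. It fell in ESC cells as well, by 0.58 on the log2 scale (edgeR adjusted p = 0.0325).

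Sex-chromosome genes were 12 of the 78 calls, and 8 of the 28 lower ones were on the X chromosome, from 517 X-linked genes tested. Uba1y rose in ESC cells, to 10.8, 12.4, 16.7 and 16.9 CPM late against 8.28, 8.24, 8.40 and 8.04 CPM early, and fell in NrESC cells, a difference of -2.14 ± 0.278 (edgeR adjusted p = 0.00176). Xlr3c also rose in ESC cells, to 17.5, 18.0, 18.6 and 19.9 CPM late against 11.6, 11.8, 14.3 and 15.4 CPM early, with a difference of -1.56 ± 0.210 (edgeR adjusted p = 0.00176). Both genes moved in opposite directions in the arms. Xlr4a and Xlr3b had differences of -0.87 and -0.80 (edgeR adjusted p = 0.0497 and 0.0374), with ESC log2 fold changes of -0.02 and -0.13. Klhl13, an adaptor of a cullin ubiquitin ligase, was at 62.4 to 68.0 CPM late and 76.5 to 88.7 CPM early in NrESC cells and at 64.5 to 81.6 CPM late and 53.1 to 60.3 CPM early in ESC cells (difference -0.73 ± 0.098, edgeR adjusted p = 0.00176).

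Ddx3y and Eif2s3y fell by less in NrESC than in ESC cells. Their ESC log2 fold changes were -0.60 and -0.54, and the differences were 0.36 ± 0.063 and 0.40 ± 0.062 (edgeR adjusted p = 0.0141 and 0.00589). The Y-linked genes therefore did not move as a group: Uba1y differed between arms in 1 direction and these genes in the other.

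**Figure D5:**
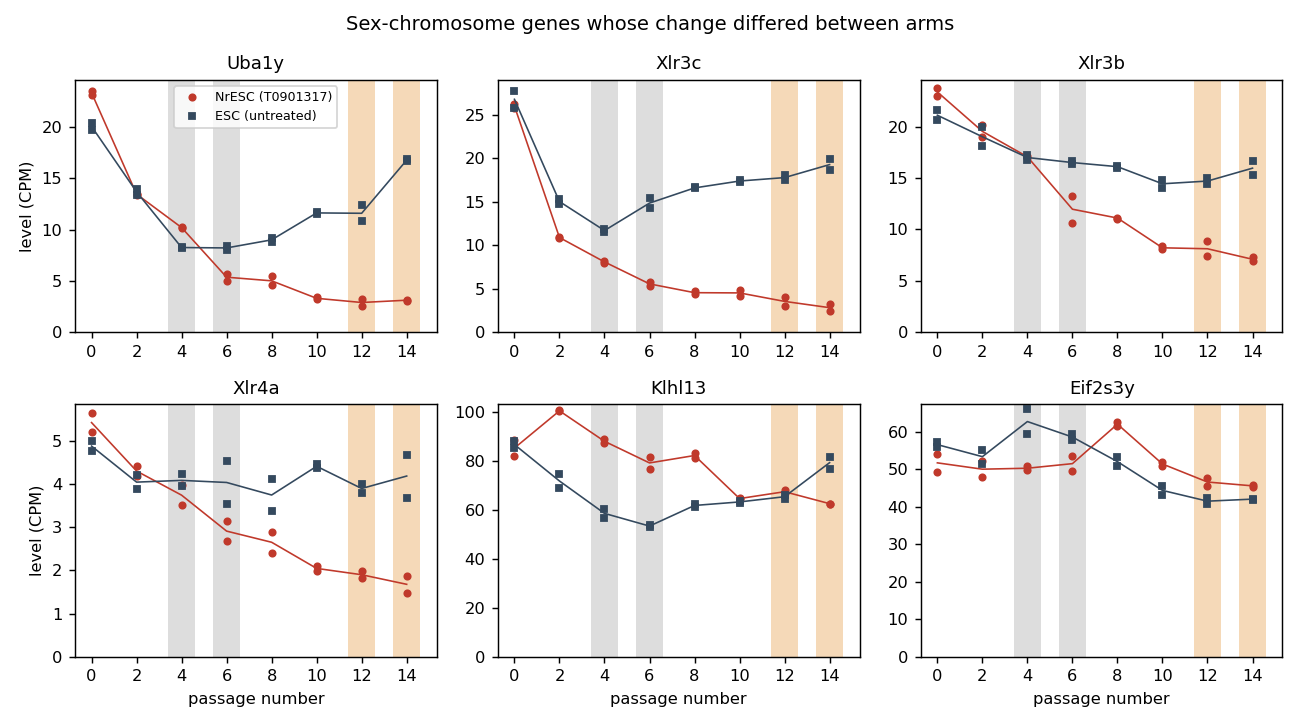
Level in CPM against passage number for 6 X- or Y-linked genes whose late minus early change differed between arms, 1 point per library, with lines through the mean of 2 libraries (red circles NrESC, dark squares ESC untreated, orange bands late, grey bands early). Uba1y and the Xlr genes are lower at later passages in NrESC cells and level or higher in ESC cells, and Eif2s3y falls further in ESC cells.

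Among the genes that the rule named as highest for the NrESC minus ESC change, 3 rose in NrESC cells. Acss1, a mitochondrial acetyl-CoA synthetase, was at 16.4, 17.7, 16.2 and 15.7 CPM late and 10.0, 11.1, 11.5 and 11 CPM early in NrESC cells (log2 fold change 0.60 ± 0.068, edgeR adjusted p = 0.000545), with a difference of 0.77 (edgeR adjusted p = 0.00572). Crabp1, a retinoic acid binding protein gene, was at 36.9 to 39.4 CPM late and 24.9 to 31.5 CPM early, and Cbln1, a synaptic organizer gene, at 21.7 to 24.5 CPM late and 13.4 to 17.3 CPM early. Their differences were 0.59 and 0.54 (edgeR adjusted p = 0.0264 and 0.0497). The other 3 named genes, Tmem92, Calb2 and Akap5, were not called in NrESC cells, with log2 fold changes of 0.29, 0.11 and 0.22.

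Tmem92, a gene of the 2-cell-like list, had ESC levels of 6.94 to 8.48 CPM late and 11.4 to 14.5 CPM early, and a difference of 1.03 ± 0.197 (edgeR adjusted p = 0.0238). In ESC cells 18 of 25 members of that list were lower and 0 higher (median -0.70), where 3.58% of all genes were lower and 3.38% higher. In NrESC cells 0 of 22 members were called, where 10.1% of all genes were. Tmem92 was the 1 member of 25 whose difference between arms was called, where 0.542% of all genes were called. Zscan4c had a difference of 0.85 (edgeR adjusted p = 0.0877).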

How the data were processed

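Poly(A) RNA was sequenced from NrESC and ESC libraries of 8 passages, 2 libraries each. Per the submitters' processing notes, RSEM, STAR, edgeR, HTSeq 0.12.4, Cufflinks 2.2.1 and DESeq2 were among the tools, and mm9 was the build. The authors deposited RSEM expected counts and TPM per gene symbol (24890 symbols). The strand setting is not given in the sources used here.

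The deposited expected counts were rounded to whole numbers, which changed 0.837% of the values. The library totals were 24989652 to 50463489 counts, and TMM factors ran from 0.979 to 1.03. Genes passing edgeR's filterByExpr were tested with edgeR 4.0.16 (R 4.3.3, glmQLFit and glmQLFTest), with a mean per period and 6 residual degrees of freedom, at a Benjamini-Hochberg adjusted p under 0.05 over all genes tested. The difference between arms was an interaction over 16 libraries, and passages within a period were compared with a mean per passage. DESeq2 1.42.0 and limma 3.58.1 on log2(TPM + 1), from the deposited TPM, were alternatives. Levels are CPM with TMM factors over all 32 libraries. The scripts were tested on simulated data.

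The rule for names took the 12 highest and 12 lowest log2 fold changes of genes called with libraries and with passage sums as the unit, where the mean log2 CPM reached 1 with no overlap of the periods, passing over placeholder symbols. For the arms the 6 highest and 6 lowest, and within each period the 3 highest and 3 lowest, were named. From each of 25 lists (522 genes, 510 in the table) the 3 genes with the smallest p were named, with every Y-linked gene and X-linked partner, and Abca1, Abcg1, Nanog, Pou5f1, Sox2, Esrrb, Zscan4c and H19. Further called members of a list are named where its count is given. Some genes that the rule or a count takes in are not reported here. The comparison and the lists were chosen with earlier results of these data known. Promoter sequences and starts are RefSeq's, GRCm38.p6, and chromosomes are from GRCm38. The files' build is mm9, so no coordinate was moved between builds.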

Additional observations from a re-analysis of the deposited data

Results flagged for a closer look

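Among 250 groups of 4 NrESC libraries examined, 1 library stood apart in 5, where chance gives about 1 in 20 for independent libraries. Each group holds 2 passages of 2 libraries, so that rate does not apply exactly. The gap to the nearest library, as a share of the group's range, was 0.847 for Cbln1 (passage 14 replicate 2 lowest of the late libraries, 21.7 CPM), 0.83 for Lefty1 (passage 12 replicate 2 highest, 4.43 CPM), 0.894 for Abca1 (passage 12 replicate 2 highest, 460 CPM) and 0.907 for Col4a1 (passage 12 replicate 1 highest, 53 CPM). In the early libraries it was 0.848 for Acat2 (passage 4 replicate 2 lowest, 137 CPM).

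The late minus early change differed between NrESC and ESC cells for 14 named genes in edgeR's quasi-likelihood test over 16 libraries with Benjamini-Hochberg adjustment. On the log2 scale, with its SE, the difference was higher in NrESC for Tmem92 (1.03 ± 0.197), Calb2 (0.91 ± 0.188), Acss1 (0.77 ± 0.118), Akap5 (0.62 ± 0.139), Crabp1 (0.59 ± 0.115), Cbln1 (0.54 ± 0.118), Eif2s3y (0.40 ± 0.062) and Ddx3y (0.36 ± 0.063). It was lower for Uba1y (-2.14 ± 0.278), Zfp951 (-1.72 ± 0.207), Xlr3c (-1.56 ± 0.210), Xlr4a (-0.87 ± 0.190), Xlr3b (-0.80 ± 0.165) and Klhl13 (-0.73 ± 0.098). With the libraries of each passage summed, 0 genes were called.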

How the results depend on the processing

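The 8 genes named by the rule kept their direction and call in 160 of 160 alternative values, but the rule chose them for being called with passages summed, which is among these values. Over 125 named genes, 2072 values kept direction and side of the threshold, 316 lost the call, 110 gained it and 0 reversed. For NrESC late against early, the calls higher and lower were 2 and 7 with passages summed, 2541 and 2616 with a mean per passage, 2588 and 2715 with all 32 libraries, and 1590 and 259 in limma on TPM. They were 2014 and 2160 without passage 4, 1789 and 1938 without passage 6, 76 and 60 without passage 12, and 110 and 100 without passage 14. Leaving out 1 library gave 342 to 671 higher and 305 to 702 lower, lowest without passage 12 replicate 2. DESeq2, its size factors and no filter stayed within 1.5 times. For ESC, the counts were 0 and 0 with passages summed, 775 and 771 in DESeq2, 185 lower in limma, and 99 to 638 higher and 89 to 601 lower without 1 library, lowest without ESC passage 14 replicate 2. For the difference between arms they were 0 and 0 with passages summed, 164 and 132 in DESeq2, 12 lower in limma, and 12 to 111 higher and 8 to 87 lower without 1 library. For passage 14 against 12 they were 223 and 110 in DESeq2, and 78 to 312 and 59 to 182 without 1 library. For passage 6 against 4 every alternative stayed within 1.5 times. With the replicate number as a block, the counts were 494 and 412 for NrESC, 240 and 234 for ESC, and 23 and 16 for the difference. Same-numbered libraries deviated with correlations of -0.115 to 0.119, so the numbers do not pair them. The cause of these differences was not tested. Fewer libraries leave fewer residual degrees of freedom, and the part of this was not tested either.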
